A study of Mus musculus with 12 samples.

Results

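The GIMAP genes encode GTPases of immunity-associated proteins, a family of GTP-binding proteins made mainly by lymphocytes. The 8 mouse genes described here, Gimap1, Gimap3, Gimap4, Gimap5, Gimap6, Gimap7, Gimap8 and Gimap9, were taken as the rows of the raw count table that carry these symbols. They are 8 of 55421 genes in the table, and 8 of 8 passed the filter on low counts that left 14460 genes to test. Expression was measured by RNA-seq in OT-I cells, CD8 T cells with a transgenic T cell receptor for an ovalbumin peptide, that were wild type (WT) or knockout (KO) for Rroid2. The cells were transferred into host mice, the hosts were infected with ovalbumin-expressing Listeria monocytogenes (LM-OVA), and the transferred cells were sorted from the spleen. SLEC, short-lived effector cells, were collected at day 7 and day 14, and MPEC, memory precursor effector cells, at day 14. Crossing the 2 genotypes with these 3 populations gives 6 groups of 2 libraries each. All 6 groups share the OT-I receptor, the transfer and the infection, so none is an uninfected or naive control. The sources used here do not give the strain, the age, the Rroid2 allele, the markers of the sort or whether libraries came from separate mice, and p-values then measure only the spread between libraries, which may be technical. Rroid2 itself was not analysed here.

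GIMAP proteins bind and hydrolyse GTP, and some members sit on internal membranes such as those of the endoplasmic reticulum, lysosomes and Golgi. Several members bear on whether a T cell lives or dies. Loss of Gimap5 in mice and rats depletes peripheral T cells, Gimap1 is needed for mature T and B cells to persist, and GIMAP6 binds a GABARAP family protein of the autophagy machinery. Gimap3 and Gimap5 bind members of the BCL2 family, Gimap4 promotes the completion of T cell death, GIMAP7 is activated by forming dimers, and Gimap8 is the family member with several GTP-binding domains in 1 chain.

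The 8 genes lie side by side on mouse chromosome 6, from 48647234 to 48770851 in GRCm38, a span of 123.6 kb. From low to high coordinates the order is Gimap8, Gimap9, Gimap4, Gimap6, Gimap7, Gimap1, Gimap5 and Gimap3. Gimap6 and Gimap3 are on the minus strand and the other 6 are on the plus strand. Gimap7, the member that moved most between groups, lies at 48718621 to 48724636, and Gimap4, the most abundant one, at 48684549 to 48692060. The stretches before the RefSeq start sites (build GRCm38.p6, from 250 to 31 bases before the start, 220 bases, which hold no annotated member exon) are shown for 4 members, Gimap7, Gimap4 and Gimap9 because they were lower at day 14, and Gimap3 because it varied least. Each runs 5′ to 3′ on the strand of its gene, and capitals mark a match to 1 of the 6 motifs searched on both strands.
Gimap7 (chr6:48718371-48718590, plus strand): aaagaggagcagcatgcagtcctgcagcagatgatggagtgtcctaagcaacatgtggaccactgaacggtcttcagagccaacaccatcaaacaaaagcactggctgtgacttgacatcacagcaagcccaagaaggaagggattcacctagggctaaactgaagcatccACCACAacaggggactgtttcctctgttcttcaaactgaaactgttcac
Gimap4 (chr6:48684328-48684547, plus strand): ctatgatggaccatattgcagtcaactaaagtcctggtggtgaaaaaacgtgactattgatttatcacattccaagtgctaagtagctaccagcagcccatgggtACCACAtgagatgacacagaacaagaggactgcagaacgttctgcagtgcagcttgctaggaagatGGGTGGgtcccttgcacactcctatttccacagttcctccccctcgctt
Gimap9 (chr6:48675885-48676104, plus strand): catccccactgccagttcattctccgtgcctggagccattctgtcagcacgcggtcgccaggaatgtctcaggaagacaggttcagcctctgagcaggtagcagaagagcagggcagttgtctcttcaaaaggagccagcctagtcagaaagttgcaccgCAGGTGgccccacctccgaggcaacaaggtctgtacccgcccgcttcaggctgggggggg
Gimap3 (chr6:48770882-48771101, minus strand): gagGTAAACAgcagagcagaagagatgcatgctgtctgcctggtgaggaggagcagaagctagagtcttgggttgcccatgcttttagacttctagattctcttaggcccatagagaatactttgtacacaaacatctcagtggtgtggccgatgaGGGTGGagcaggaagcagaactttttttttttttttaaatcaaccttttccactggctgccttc
The motifs were the E-boxes CAGCTG and CAGGTG, the RUNX motif TGTGGT, the ETS motif GGAAGT, the FOXO motif GTAAACA and the KLF motif CCACCC. No marked matches overlap. The RUNX letters were found in 3 of 8 members, Gimap4, Gimap7 and Gimap1. They were in 11% of 20150 windows of the same length before RefSeq starts of protein-coding genes. All listed windows of those genes were used, but only the first listed one of each member. The KLF letters were in 3 of 8, Gimap4, Gimap5 and Gimap3, against 27.5%, and ETS in Gimap5 alone, against 17.1%. FOXO letters were in Gimap3 alone, against 2.31%, CAGGTG in Gimap9 alone, against 15.5%, and CAGCTG in 0 of 8, against 10.8%. The 3 members that fell at day 14 thus hold no motif in common among these letters. A match is a description of the window and not a binding site, and the window was shortened from 250 bases after the counts in the longer one had been seen.

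Library totals ran from 7603551 to 14026594 counts, and the 8 genes together took 2762 to 3549 CPM of each library (CPM being the count scaled to a common library size with TMM factors). The lowest count of any member in any library was 709, for Gimap5, and the highest 17521, for Gimap4, so no value of a member rests on few reads. The 8 CD8 T cell markers summed to between 4537 and 6419 CPM, with none at 0 in any library. Markers of 4 other cell types stood apart in WT SLEC day 14, B cells by the most: their 14 genes summed to 654 and 2541 CPM there, against 23.2 to 366 CPM in the other 10 libraries. The sums of the 9 monocyte and macrophage markers ran from 48.9 to 62.3 CPM in WT SLEC day 14 and from 7.15 to 32.4 in the others. Neutrophil markers (8 genes) had 5.70 to 60.0 against 0 to 5.29 CPM, and plasma cell markers (5) 4.68 to 15.9 against 0.202 to 1.92 CPM. CD4 T cell (3) and erythroid (7) markers did not separate these libraries and reached at most 21.0 and 101 CPM. The NK cell markers (3) stood apart in SLEC day 14 of both genotypes, with 78.8 and 93.7 CPM in WT and 98.6 and 82.6 in KO. In the day 7 and MPEC libraries they had 5.07 to 26.7 CPM. Ncr1 among them had 2 and 2 counts in WT and 0 and 0 in KO SLEC day 14. Fewer cells of a type and less RNA per cell cannot be told apart in such bulk libraries.

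Per kilobase of exon, Gimap4 was the most abundant member in 12 of 12 libraries and Gimap5 the least abundant in 12 of 12. Gimap4 averaged 558 CPM per kb (range 461 to 732 over the 12 libraries) and made up 42.9% of the summed per-length level of the family. Gimap3 followed with 203 (176 to 242) and Gimap6 with 180 (145 to 211) CPM per kb, and the ranges of these neighbours overlap. Next came Gimap9 with 104 (89.3 to 142), Gimap8 with 92.5 (66.9 to 116) and Gimap7 with 88.9 (56.5 to 141) CPM per kb. The ranges of these 3 overlap as well, and their order changed from library to library. Gimap1 had 47.4 (37.2 to 55.8) and Gimap5 22.8 (19.0 to 25.5) CPM per kb, each below the range of the member before it. Among the 14176 tested genes with an exon length, Gimap4 stood at percentile 99.8 of the per-length level, Gimap1 at 95.6 and Gimap5 at 88.6, and the other 5 between 98.0 and 99.3. Gimap1 and Gimap5 thus had the lowest RNA levels per length of the 8.

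**Figure D1:**
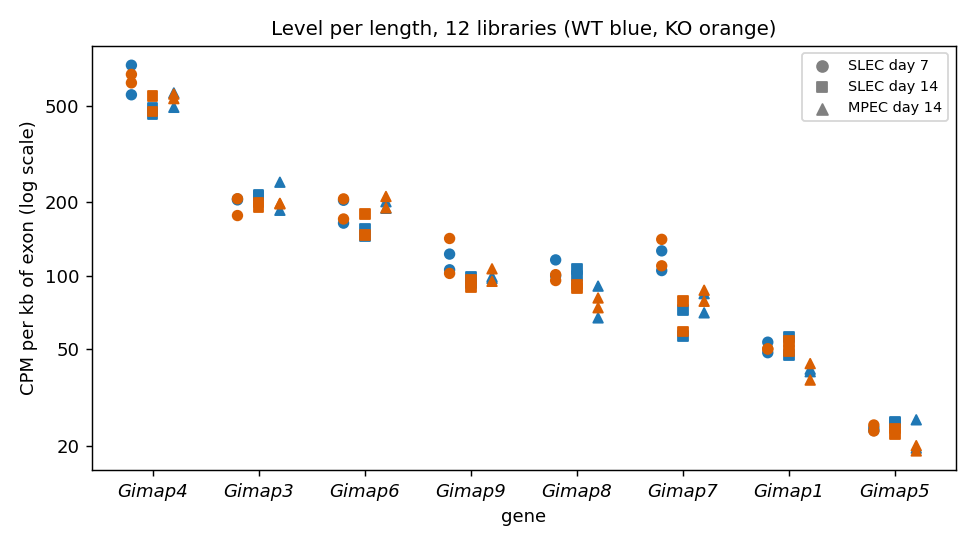
Level of each GIMAP gene in CPM per kilobase of exon on a log axis, 1 point per library, circles for SLEC day 7, squares for SLEC day 14 and triangles for MPEC day 14, with WT in blue and KO in orange. Gimap4 lies between 461 and 732 and Gimap5 between 19.0 and 25.5, and the day 7 circles of Gimap7 lie above its other symbols.

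The levels varied little over the 6 groups, with 1 exception. The distance between the highest and the lowest group mean was 0.96 on the log2 scale for Gimap7, which put it at percentile 83.4 of 4764 abundant genes (mean log2 CPM of 5 or more). Gimap3 had a distance of 0.16, at percentile 1.66, and the other 6 members lay between 0.35 and 0.48, at percentiles 19.9 to 38.9, all below the median abundant gene with 0.56. The abundant genes were not matched to the members for level. Mean log2 CPM of the members ran from 6.56 for Gimap5 to 9.99 for Gimap4, and counting noise widens this distance more in genes with fewer reads. Over the 12 libraries the coefficient of variation was 29.6% for Gimap7 and 8.11% to 14.9% for the other 7.

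**Figure D2:**
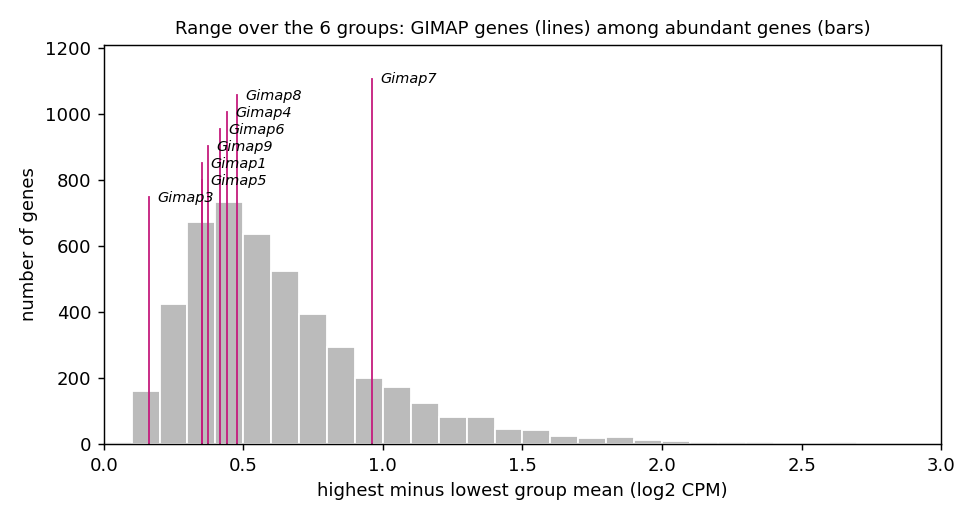
Number of abundant genes (bars, 4764 genes in steps of 0.1) by the distance between their highest and lowest group mean in log2 CPM, with a line for each GIMAP gene; line heights only separate the names, and genes beyond 3 are not drawn. Gimap3 sits near the left edge with 0.16, Gimap7 to the right of the peak with 0.96, and the other 6 between 0.35 and 0.48.

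The first question was whether loss of Rroid2 changed the GIMAP genes, and 0 of 8 passed the test in any of the 3 populations or in their mean. In WT and KO SLEC at day 7, Gimap5 had 95.6 and 98.1 CPM against 101 and 95.2, and Gimap1 had 148 and 163 against 153 and 153. The libraries of the 2 genotypes overlap for both genes. At day 14, the SLEC values of Gimap5 were 103 and 103 CPM in WT and 92.4 and 97.4 in KO. Those of Gimap3 were 548 and 553 in WT and 514 and 494 in KO, and those of Gimap8 369 and 393 in WT and 329 and 340 in KO. For these 3 members both KO libraries lay below both WT libraries, with log2 differences of -0.12 ± 0.15 (SE) for Gimap5, -0.13 ± 0.15 for Gimap3 and -0.19 ± 0.15 for Gimap8. In the same way, 25.7% of all tested genes had both KO libraries below both WT libraries. None of the 3 passed edgeR's quasi-likelihood test with Benjamini-Hochberg adjustment over all genes (adjusted p = 0.82, 0.80 and 0.69). In MPEC, Gimap5 had 106 and 80.9 CPM in WT and 82.8 and 78.8 in KO, and all 8 members overlapped between the genotypes there, while 30.1% of all tested genes did not overlap.

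Called genes were rare in these comparisons as a whole: 0.0277% of tested genes in SLEC at day 7, 0.546% in SLEC at day 14, 0.0138% in MPEC and 0.083% for the mean of the 3 populations. The count behind the first of these shares was 4 genes, but 209 without WT SLEC day 7 replicate 2. At an unadjusted p under 0.05, the count of members was also 0 of 8 in each, and DESeq2 called 0 of 8. Among all genes, 3.37%, 12.5%, 2.46% and 8.26% had an unadjusted p under 0.05. The mean KO effect over the 3 populations ran from -0.12 ± 0.09 (SE) for Gimap8 to 0.10 ± 0.10 for Gimap7 on the log2 scale, positive for 4 members and negative for 4, with a median of 0.01 against -0.02 for all genes. The 95% intervals of the 8 mean effects lay between -0.30 and 0.32, that is between 0.81-fold and 1.25-fold. In single populations they reached from -0.54 to 0.49. The KO effect was not shown to differ between SLEC day 14 and day 7, or between MPEC and SLEC at day 14, for any of the 8 members (0 of 8 at an unadjusted p under 0.05 in edgeR and in DESeq2, against 6.58% and 4.23% of all genes). Of all genes, 0.00692% and 0% were called in these tests of the difference.

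The second comparison set SLEC at day 14 against SLEC at day 7, and here Gimap7 fell to 0.55-fold. Its day 7 values were 244 and 294 CPM in WT and 255 and 327 in KO, and its day 14 values 168 and 131 in WT and 137 and 182 in KO. Every day 7 library lay above every day 14 library, in both genotypes. How many of all tested genes separate in this way between the days was not counted, so the separation of Gimap7 is a description. The log2 change was -0.85 ± 0.18 (SE) in WT (adjusted p = 0.0059), -0.87 ± 0.18 in KO (adjusted p = 0.0035) and -0.86 ± 0.13 for their mean (adjusted p = 1e-04, edgeR's quasi-likelihood test). The fall differed between KO and WT by -0.02 ± 0.26, with a 95% interval from -0.56 to 0.52. Of the 8 members, 1 was called in WT, 1 in KO and 3 for the mean, against 9.94%, 17.2% and 25.1% of all genes in either direction and 5.25%, 9.5% and 13.7% that fell. At day 14 the MPEC libraries had 163 to 202 CPM of Gimap7, also below the 4 day 7 SLEC libraries with 244 to 327.

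The call for Gimap7 in a single genotype rests on single libraries. It was lost in WT without WT SLEC day 14 replicate 2 (log2 change -0.68, adjusted p = 0.13), the library with the most B cell marker RNA. In KO it was lost without KO SLEC day 7 replicate 2 (-0.67, adjusted p = 0.053) or without KO SLEC day 14 replicate 1 (-0.67, adjusted p = 0.070). The mean over both genotypes was called in each of the 22 alternative fits, 12 of them leaving out 1 library, with changes from -0.97 to -0.76 and adjusted p of at most 0.018. The summed B cell markers of WT SLEC had 23.2 and 78.2 CPM at day 7 and 654 and 2541 at day 14, and those of KO SLEC 66.9 and 57.3 at day 7 and 64.9 and 25.7 at day 14. With a term for B cell RNA in the model, the change of Gimap7 was -0.63 ± 0.41 in WT (adjusted p = 0.57) and -0.90 ± 0.19 in KO (adjusted p = 0.0028). In WT SLEC the B cell sums went with the day, which widens the SE. A call lost with this term therefore cannot tell B cell RNA from the day, for Gimap7 or any other member. Counts of mitochondrial genes also differed, with 13.3% to 20.6% of each day 7 library and 8.65% to 10.9% of each SLEC day 14 library. With these genes left out, the mean change of Gimap7 was -0.86 ± 0.13 (adjusted p = 1e-04). Leaving them out only takes them from the scaling and the fit. Whether the mitochondrial difference between the libraries bears on Gimap7 was not tested.

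Gimap4, the most abundant member, and Gimap9 also fell for the mean of the genotypes, by less. Gimap4 had 1017 and 1345 CPM in WT and 1233 and 1138 in KO at day 7, and 896 and 848 in WT and 867 and 1008 in KO at day 14. Within each genotype both day 14 libraries lay below both day 7 libraries on the TMM scale. On raw totals the WT libraries overlapped, with 912 and 1419 CPM of Gimap4 at day 7 and 979 and 975 at day 14. The mean change was -0.39 ± 0.11 (adjusted p = 0.014), while -0.44 ± 0.15 in WT and -0.34 ± 0.15 in KO did not pass (adjusted p = 0.082 and 0.14). The mean call was lost with the term for B cell RNA (-0.50 ± 0.17, adjusted p = 0.058) and without WT SLEC day 7 replicate 2 (adjusted p = 0.05), WT SLEC day 14 replicate 2 (0.054) or KO SLEC day 14 replicate 1 (0.073). Gimap9 went from 201 and 173 CPM in WT and 167 and 233 in KO at day 7 to 162 and 153 in WT and 158 and 147 in KO. Its libraries do not overlap within a genotype. On raw totals the WT libraries lay closer together, with 180 and 183 CPM of Gimap9 at day 7 and 177 and 176 at day 14. Those of KO had 166 and 201 CPM at day 7 and 165 and 140 at day 14. How many of all tested genes separate in this way was not counted for Gimap4 or Gimap9. The mean change of Gimap9 was -0.32 ± 0.11 (adjusted p = 0.047, edgeR's quasi-likelihood test). That call sat at the threshold: it was lost in 6 of 10 other settings and in 10 of 12 fits without 1 library, all but those without WT SLEC day 7 replicate 2 or KO SLEC day 7 replicate 1. Without KO SLEC day 7 replicate 2, the highest library, the change of Gimap9 was -0.19 (adjusted p = 0.26).

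**Figure D3:**
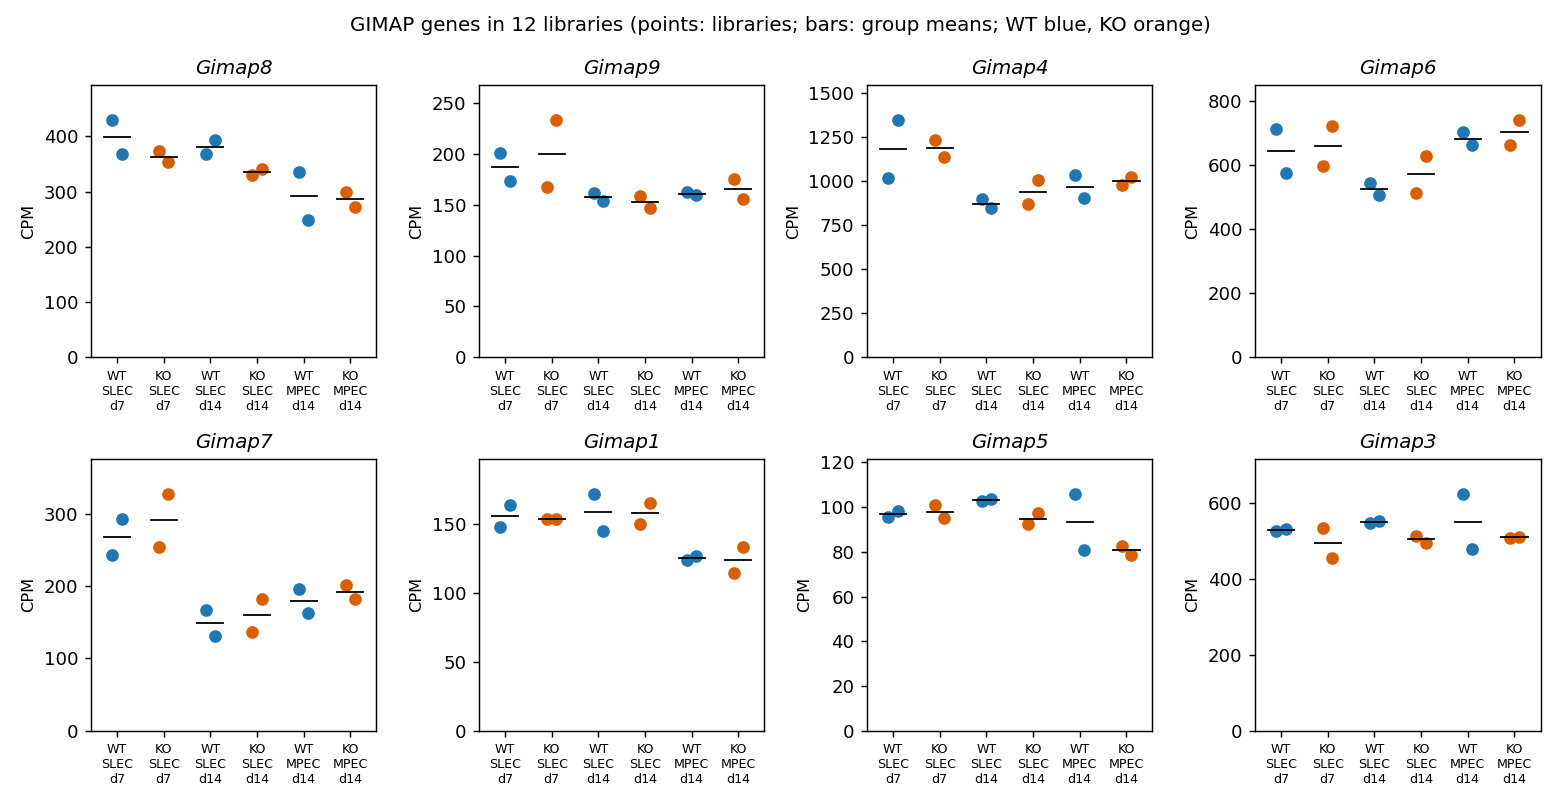
CPM of each GIMAP gene, in the order of the genes on the chromosome, in the 6 groups, with 1 point per library (WT blue, KO orange), a bar at each group mean and axes from 0. For Gimap7 the 4 day 7 SLEC points lie at 244 to 327 and the other 8 at 131 to 202; for Gimap3 all but 2 points lie close together, between 478 and 553.

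The other 5 members did not pass the test between the days. Gimap6 changed by -0.25 ± 0.11 (adjusted p = 0.10) for the mean, with 713 and 574 CPM in WT and 597 and 722 in KO at day 7 and 544 and 507 in WT and 513 and 627 in KO at day 14. Gimap1, Gimap3, Gimap5 and Gimap8 had mean changes of 0.03, 0.04, 0.02 and -0.09, each with an SE of 0.10 or 0.11. The median change of the 8 was -0.17, against 0.02 for all genes. In the sum over the family, the 4 SLEC day 7 libraries had 3374 to 3549 CPM and the 4 SLEC day 14 libraries 2762 to 3060. This separation depends on the TMM factors. In raw counts the family took 42460 of 14026594 in WT SLEC day 7 replicate 1. It took 40219 of 12427019 in WT SLEC day 14 replicate 1, a larger share. The levels of Gimap7 relative to Gimap3, the steadiest member, describe the shift within the family in each library. Per kilobase, Gimap7 stood at 51.2% to 79.8% of Gimap3 in the day 7 libraries and at 26.3% to 40.9% in the SLEC day 14 libraries. Both members were picked for their range over these same libraries, so the ratio restates the values above and adds no separate evidence.

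The third comparison set MPEC against SLEC at day 14. Gimap1, which mature T cells need to persist, was lower in MPEC. It had 171 and 145 CPM in WT SLEC and 150 and 165 in KO SLEC, against 124 and 127 (WT) and 114 and 133 (KO) in MPEC. Every MPEC library lay below every SLEC library, though how many of all tested genes separate in this way was not counted. The mean change was -0.34 ± 0.10 (adjusted p = 0.035, edgeR's quasi-likelihood test), and 1 of 8 members was called for the mean, against 13.1% of all genes in either direction and 5.99% that fell. In WT and in KO alone, 0 of 8 were called, against 7.96% and 5.11% of all genes, with 3 and 1 members at an unadjusted p under 0.05 (21.1% and 17.2% of all genes) and 0 called by DESeq2. The mean call of Gimap1 was lost in 6 of 12 fits without 1 library (adjusted p of at most 0.16): those without WT SLEC day 14 replicate 1, either WT MPEC library, either KO SLEC day 14 library or KO MPEC day 14 replicate 1. With the term for B cell RNA, the mean change of Gimap1 was -0.36 ± 0.11 (adjusted p = 0.030). Mitochondrial genes took 11.8% to 15.0% of each MPEC library, above the SLEC day 14 libraries. With these genes left out of the scaling and the fit, the mean change of Gimap1 was -0.35 ± 0.10 (adjusted p = 0.031). Whether the mitochondrial difference bears on Gimap1 was not tested.

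Gimap6 and Gimap8 stood next to the threshold, in opposite directions. Gimap6 had 544 and 507 CPM in WT SLEC and 513 and 627 in KO SLEC at day 14, against 703 and 661 (WT) and 663 and 739 (KO) in MPEC. Each MPEC library was above each SLEC library, and the mean difference was 0.34 ± 0.11 (adjusted p = 0.051). Gimap8 had 369 and 393 CPM in WT SLEC and 329 and 340 in KO SLEC, against 335 and 248 (WT) and 299 and 273 (KO) in MPEC. The MPEC libraries lay below the SLEC libraries within each genotype, and the mean difference was -0.31 ± 0.11 (adjusted p = 0.074). For neither member was it counted how many of all tested genes separate in this way. DESeq2 called both of them for the mean (adjusted p = 0.032 for Gimap6 and 0.036 for Gimap8), with Gimap1. Gimap7 differed by 0.27 ± 0.13 (adjusted p = 0.20) and Gimap5 by -0.19 ± 0.11 (adjusted p = 0.31). Gimap3, Gimap4 and Gimap9 differed by 0.01, 0.12 and 0.07. The comparisons between days and between populations share the SLEC day 14 libraries, so their values for a member are not independent.

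**Figure D4:**
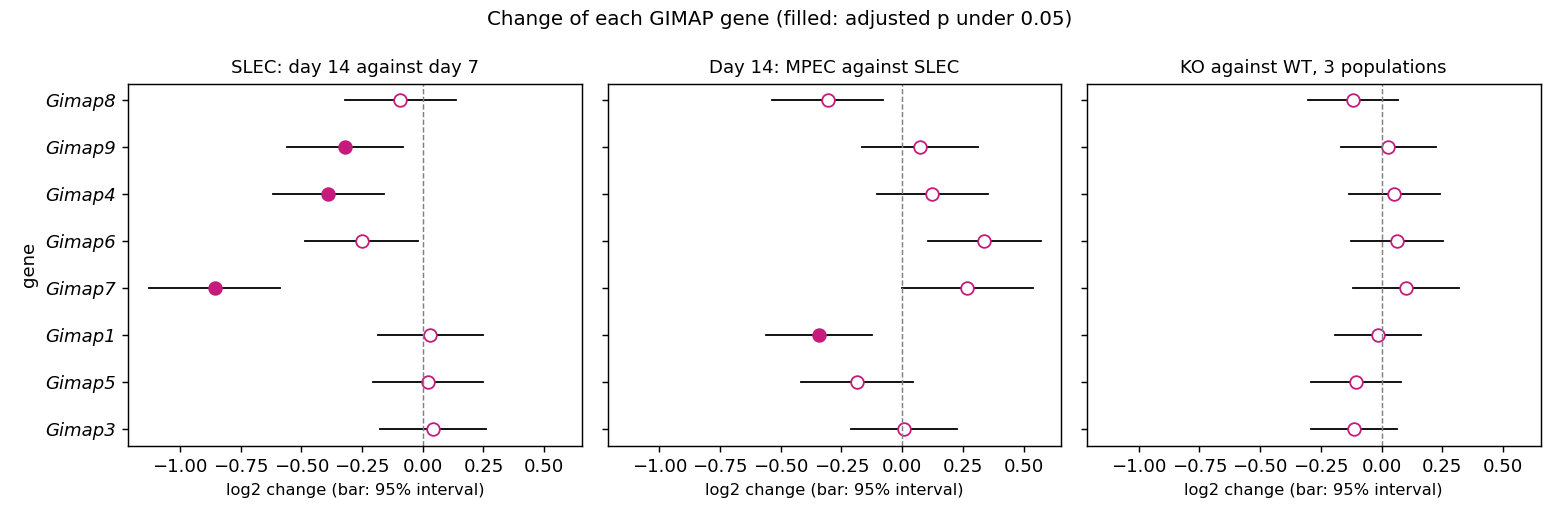
Log2 change of each GIMAP gene with its 95% interval for the mean of both genotypes between the days (left), between MPEC and SLEC (middle) and for the mean KO effect (right); filled points have an adjusted p under 0.05 in edgeR's quasi-likelihood test. Gimap7 stands apart on the left at -0.86, Gimap1 is the only filled point in the middle at -0.34, and all 8 points on the right lie between -0.12 and 0.10.

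Reads in this cluster can belong to more than 1 annotated gene. Gimap1os, a long noncoding RNA on the other strand, covers 1107 bases or 36% of the Gimap1 exons, and the sources used here do not state the strand setting of the counting, so reads of this pair may not be told apart. Gimap1os had 77.9 and 65.7 CPM in WT SLEC and 73.0 and 96.8 in KO SLEC at day 7, and 47.5 and 42.8 in WT and 66.5 and 68.3 in KO at day 14. Its mean change between the days was -0.50 ± 0.12 (adjusted p = 0.0058), beside 0.03 ± 0.10 for Gimap1. In MPEC against SLEC, Gimap1os changed by 0.09 ± 0.12 (adjusted p = 0.70), beside the fall of Gimap1. The KO value of Gimap1os in SLEC at day 14 was higher by 0.58 ± 0.18 and did not pass (adjusted p = 0.14). Gm28053, a gene model on the same strand that runs over Gimap7, Gimap1 and Gimap5, shares 3.48%, 6.44% and 3.69% of their exon bases and had 10 to 81 counts in a library. Of 31 other annotated genes within 200 kb of the cluster, 11 were tested, and Gimap1os was the only one called in any of the 12 comparisons. Between 0% and 25.1% of all tested genes were called in a single comparison. Gimap1os was also the most abundant of the 11, with a mean of 64.5 CPM. Others rested on few reads, such as Sspo, Gm7887 and Tmem176a with means of 0.250, 0.575 and 0.886 CPM. Their lack of a call thus says little.

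The BCL2 and GABARAP families, which include partners of GIMAP proteins, and 2 lists of other T cell and GTPase genes were set beside the GIMAP genes, with no test of a list. Between the days in SLEC, 25.1% of all genes were called for the mean of the genotypes, 11.4% higher and 13.7% lower, and the counts below are to be read against these shares. Of 12 BCL2 family genes, 1 rose and 3 fell (median -0.04): the survival gene Bcl2 rose by 1.83 ± 0.19, the death effector Bak1 fell by 0.96 ± 0.15, and Bad fell by 0.65 ± 0.21. Bcl2a1b was called lower for the mean (-1.24 ± 0.42) at levels of a few CPM, with group means of 7.94 at day 7 and 1.20 at day 14 in KO but 3.33 and 3.64 in WT. Of 13 GABARAP and autophagy genes, 2 fell, Map1lc3b by 0.63 ± 0.20 and Becn1 by 0.43 ± 0.11, and Gabarap changed by -0.39 ± 0.15 without passing (adjusted p = 0.060). Of 15 quiescence and IL-7 receptor genes, 9 rose and 0 fell (median 0.51), with Ccr7 at 2.59 ± 0.80 (from 0.192 and 0.576 CPM in WT and KO at day 7, so on few reads), Tcf7 at 1.93 ± 0.48 and Il7r, the receptor for the survival cytokine IL-7, at 1.10 ± 0.18. Of 16 interferon-induced GTPases, another GTPase family of immune cells, 1 rose and 3 fell (median -0.16), with Gbp3 at -0.57 ± 0.14, Gbp4 at -0.49 ± 0.11, Gbp7 at -0.32 ± 0.10 and Gbp5 at 0.36 ± 0.13.

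Between MPEC and SLEC at day 14, 13.1% of all genes were called for the mean, 7.14% higher and 5.99% lower. Il7r, a gene by which MPEC are known, was higher in MPEC by 4.52 ± 0.17, and 6 of 15 genes of its list rose while 1 fell (median 0.24), Klf2 by 0.66 ± 0.11, named here after its value was seen. Bcl2 rose by 1.39 ± 0.17 and Pmaip1, a gene of a pro-death BCL2 family protein, fell by 1.17 ± 0.12. In all, 2 of 12 BCL2 family genes rose, Bcl2l1 being the other with 0.41 ± 0.12, and 1 fell. Of 16 interferon-induced GTPases, 6 rose and 0 fell (median 0.46), with Tgtp1 at 3.15 ± 0.63 (group means of 0.752 and 0.206 CPM in WT and KO SLEC, so on few reads) and Gbp9 at 0.81 ± 0.15, while the median of the 8 GIMAP genes was 0.04. The autophagy genes Gabarapl1 and Map1lc3a fell by 1.35 ± 0.30 and 1.46 ± 0.37, and Ulk1 by 0.56 ± 0.15, the 3 of 13 that fell. For the mean KO effect, 0 genes of each of the 4 lists were called in edgeR's quasi-likelihood test, and Il7r differed by 0.51 ± 0.14 (adjusted p = 0.31). This was neither the largest change nor the smallest p among the genes of the 4 lists.

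The genes whose levels followed the mean log2 CPM of the 8 members most closely over the 12 libraries were Flot1, a membrane scaffold protein gene, with Pearson's r of 0.94, Ssr3 (0.93), Rras2 (0.92), Nde1, Vta1 and Mtch1 (each 0.91). They were taken from 4698 candidate genes for the highest r, none lies on chromosome 6, and the 12 points share their groups, days and library sizes, so these values are a description with no test.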

How the data were processed

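Raw counts per gene were deposited by the authors as 1 table of 12 libraries. Per the labels' protocols, RNA of sorted cells went into SMART-Seq Stranded libraries. Per the submitters' processing notes, bcl2fastq, STAR 2.6.1a and GRCm38 were used; these sources name neither the counting program nor its strand setting. Counts were tested with edgeR 4.0.16 in R 4.3.3 (TMM factors, filterByExpr, 1 coefficient for each of 6 groups, robust quasi-likelihood fit, 6 residual degrees of freedom), with Benjamini-Hochberg adjustment over 14460 genes and a call at adjusted p under 0.05. SE is the log2 change divided by the square root of F. The fit used bias-adjusted deviances, a form set after the values under edgeR's default had been seen; the default called the same number of members in each of the 12 comparisons. Exon lengths and coordinates are from GENCODE M21, and the sequences from RefSeq, which matched 8 of 8 members by symbol. The scripts were tested on simulated data. DESeq2 1.42.0, other factors, filters, model terms and leaving out each library were tried as alternatives. The fit on the libraries of the compared groups alone was also tried.

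The members and gene lists were chosen with earlier results of these data known. The text names all 8 members, the 6 genes most alike in pattern (mean log2 CPM of 5 or more, prior count 2), tested neighbours within 200 kb, and from each list up to 4 called genes of the largest change and up to 2 uncalled ones of the smallest p; 1 gene of these lists is not reported here by name. Members had at least 709 counts, and 2 libraries per group limit the precision. Counting error is not always small beside the spread of libraries, as Gimap5 had 102.9 and 103.5 CPM in WT SLEC day 14.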

Additional observations from a re-analysis of the deposited data

How the results depend on the processing

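Over 10 other settings and 12 fits without 1 library, 2053 of 2104 recomputed changes of members kept their side of the threshold, 31 lost a call, 20 gained one and 0 called values turned sign. Among the 2053, 149 differed in sign while called in neither fit. For day 14 against day 7 in WT SLEC, the 1 called member became 2 with no filter on low counts and with DESeq2 (Gimap4 added, adjusted p = 0.033 and 0.049), and 0 with the term for B cell RNA or with only the groups compared (Gimap7 at adjusted p = 0.056 there). It was 0 to 2 without 1 library, as it was in KO. For the mean of the genotypes, the 3 called members became 1 with the term for B cell RNA, 2 (Gimap9 lost) with RLE or upper-quartile factors, no filter, the block or only the groups compared, and 1 to 3 without 1 library. MPEC against SLEC in WT went from 0 to 1 with only the groups compared (Gimap6). For the mean of the genotypes, the 1 called member became 3 with no filter, DESeq2 or only the groups compared, 2 with a mean CPM of 5 or more, and 0 to 3 without 1 library. All 48 group levels were recomputed on raw totals: 34 moved by less than the spread between libraries and 14 by more, by up to 12.3%. Without 1 library an arm holds 1 sample, which is assumed to vary like the other groups.

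With the replicate number as a block, the mean change of Gimap9 between the days was -0.32 (adjusted p = 0.053), which left 2 called members of 3, and no other call of a member changed. Deviations of same-numbered libraries correlated at -0.21 to 0.31 over 15 pairs of groups (median -0.02). With 2 per group, this cannot exclude pairing.

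Counts over all genes moved more than those of the members. KO against WT in SLEC at day 14 went from 79 genes to 13 without bias adjustment, 6 with a mean CPM of 5 or more, 5 with the term for B cell RNA, 130 with the block, 247 with DESeq2, 506 with no filter and 2 to 223 without 1 library. The mean KO effect went from 12 to 4, 89 and 167 with the B cell term, DESeq2 and no filter, KO SLEC day 7 from 4 to 2 with only the groups compared and 23 with no filter, and KO MPEC from 2 to 5 and 7 with DESeq2 and no filter. The difference of the KO effect between the days went from 1 to 28 and 109 with DESeq2 and no filter, and that between MPEC and SLEC from 0 to 23 with no filter. Called genes between the days fell to 304 and 1962 with the B cell term, from 1437 in WT and 3628 for the mean, and to 330 in WT with only the groups compared. Between MPEC and SLEC they went from 1151 in WT to 469 and 1998 under these 2 settings, and from 739 in KO to 398 with the B cell term. Without 1 library the counts ran from 2 to 209 (KO SLEC day 7), 2 to 4 (KO MPEC), 7 to 59 (mean KO effect) and 0 to 96 (its difference between the days), each highest without WT SLEC day 7 replicate 2 save for KO MPEC, where it was WT MPEC day 14 replicate 2. Between the days they ran from 417 to 1563 in WT and 834 to 2930 in KO, and between MPEC and SLEC from 278 to 1471 in WT, 249 to 982 in KO and 1220 to 2259 for the mean. The lowest of these were without WT SLEC day 14 replicate 2, KO SLEC day 14 replicate 2, WT MPEC day 14 replicate 2, KO SLEC day 14 replicate 2 and WT MPEC day 14 replicate 2.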
